A study of Rattus norvegicus with 47 samples.

Results

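The account concerns rat cerebral cortex labelled as contralateral, the side opposite a brain injury, and as 24 h, the time after it. Those labels do not say that every animal was injured. It compares 2 consecutive blocks of RNA extractions, numbers 45 to 48 (4 arrays, the later block) against numbers 41 to 44 (4 arrays, the earlier block). These 8 arrays were selected by the region, side, time and extraction number in their labels, out of 47 arrays in the series. All 47 arrays carried total RNA extracted with Trizol and hybridised to an oligonucleotide array with 8799 probe sets. For reference, the same split was made in ipsilateral cortex at 24 h (numbers 37 to 40 against 33 to 36) and in contralateral cortex at 4 h (numbers 13 to 16 against 9 to 12), each with 4 arrays a block.

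All arrays of these 6 blocks carry the same labelled treatment, "wait", and the labels give no strain, sex, age, injury model or sham status. What separates the later from the earlier block is therefore the extraction number alone, and whether a block held injured or sham-operated animals is not given in the sources used here. "Later" and "earlier" below refer only to that number. The labels also do not say whether each array came from a separate animal, so the spread behind the p-values may be technical. That spread was pooled over all groups of the series, so it is not that of the compared arrays alone. The number of arrays limits the precision.

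After injury to one side of the cortex, microglia, the resident macrophages of the brain, and astrocytes near the lesion change shape and transcription. Microglia are the main source of complement C1q in brain, and astrocytes and oligodendrocytes supply much of the cholesterol that neuronal membranes need, since blood cholesterol does not cross into the brain. The opposite cortex receives connections from the injured side through the corpus callosum and is often used as a reference in such studies.

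In contralateral cortex at 24 h no probe set separated the later from the earlier block past the threshold. Of 7503 probe sets tested with limma, 0 (0%) had an adjusted p under 0.05, and the smallest adjusted p was 0.82. At an unadjusted p under 0.05 there were 220, against 375 that the number of tests would give if p-values were uniform. Of these, 116 were higher (1.55% of those tested) and 104 lower (1.39%) on the later arrays. All 4 later arrays lay above all 4 earlier ones for 90 probe sets (1.2%) and below them for 58 (0.773%). The same test called 66 probe sets (0.88%) between the number blocks of ipsilateral cortex at 24 h and 9 (0.12%) between those of contralateral cortex at 4 h.

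The precision of these differences is set by the spread between arrays, pooled over all groups of the 47 arrays. Over all tested probe sets the median SE of the log2 difference was 0.21. That gives an unadjusted 95% interval of 0.43 on either side, or 1.35-fold. Larger differences, such as that of C1qb at 1.46-fold, also failed to pass after adjustment over 7503 tests. The median difference was 0.02 on the log2 scale, and 4004 of 7503 probe sets (53.4%) were higher on the later arrays. Counting each of 4242 genes once, by its probe set of highest mean, 2378 (56.1%) were higher, with a median of 0.03. Log2 differences past 1 in either direction numbered 16 contralaterally and 75 ipsilaterally.

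The 8 arrays were alike in most measures of overall quality, with exceptions given here and among the flagged results below. Array medians of signal, the deposited intensity of a probe set, ran from 700.8 to 781.6 in the earlier block and from 761.8 to 801.4 in the later one. Correlations of log2 signal were 0.97 to 0.985 for the 12 pairs within a block and 0.972 to 0.984 for the 16 pairs between blocks, with a median of 0.974 in both. The ratio of 3-prime to 5-prime signal of beta-actin, a measure of RNA length, was 1.466 to 1.579 on the earlier and 1.337 to 1.448 on the later arrays, without overlap. The same ratio for Gapdh was 1.036 to 1.084 and 1.043 to 1.146. The part of RNA length in the differences below was not tested.

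The label cortex was checked against the 9 arrays labelled contralateral hippocampus, which were taken at 4 h. Of 6 cortex-enriched genes 5 were higher in mean on the 8 cortex arrays, and for 4 of them (Rgs4, Rorb, Pvalb and Cck) all 8 lay above all 9. Rgs4, a regulator of G-protein signalling, had a mean log2 signal of 14.34 here and 12.06 in hippocampus. Of 7 hippocampus-enriched genes 5 were lower, with all 8 arrays below all 9 for Doc2b, Htr2c and Neurod1. Sncg, encoding gamma-synuclein, was at the floor on all 8 cortex arrays. The floor, a log2 signal of 7.54, is the lowest value kept, to which dimmer signals were raised. Calb1, placed with the hippocampal genes, went the other way, at 12.96 in cortex and 12.16 in hippocampus.

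Among the probe sets with the smallest p, those of the complement and microglial genes were higher on the later arrays. C1qb encodes the B chain of C1q, the molecule that starts the classical complement pathway. Its log2 signal was 11.41, 11.32, 11.38 and 10.98 on arrays 41 to 44, and 11.68, 11.53, 12.29 and 11.78 on arrays 45 to 48. All later arrays lay above all earlier ones, and array 47 was the highest. The difference was 0.54 with an SE of 0.15 (1.46-fold, 95% interval 1.19 to 1.79), with an unadjusted p of 0.000599 and a limma adjusted p of 0.82. A second C1qb probe set read 10.86, 10.77, 10.91 and 10.70 on the earlier arrays and 11.09, 11.11, 12.01 and 11.46 on the later ones. It also did not overlap and differed by 0.61 (SE 0.18). C1qc, the C chain of the same molecule, read 10.51 to 10.88 on the earlier and 10.86 to 11.21 on the later arrays, which overlap, a difference of 0.36 (SE 0.16).

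Tspo, the mitochondrial translocator protein whose ligands are used to image activated microglia, read 9.48, 9.45, 9.44 and 7.79 on arrays 41 to 44. Arrays 45 to 48 read 9.78, 9.86, 10.24 and 10.05. The blocks did not overlap, but array 44 stood far below the other 3 earlier arrays. The difference was 0.94 (SE 0.30, limma adjusted p 1), and 0.53 without array 44. RT1-DMb encodes a chain of the class II molecule that loads peptides for antigen presentation. It read 10.23, 10.09, 10.23 and 10.54 on the earlier arrays and 10.85, 10.31, 10.93 and 10.73 on the later, with array 46 inside the earlier range. Its difference was 0.43 (SE 0.15). The dimmer RT1-DMb probe sets were at 0.10 (SE 0.51) and -0.03 (SE 0.31).

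**Figure D1:**
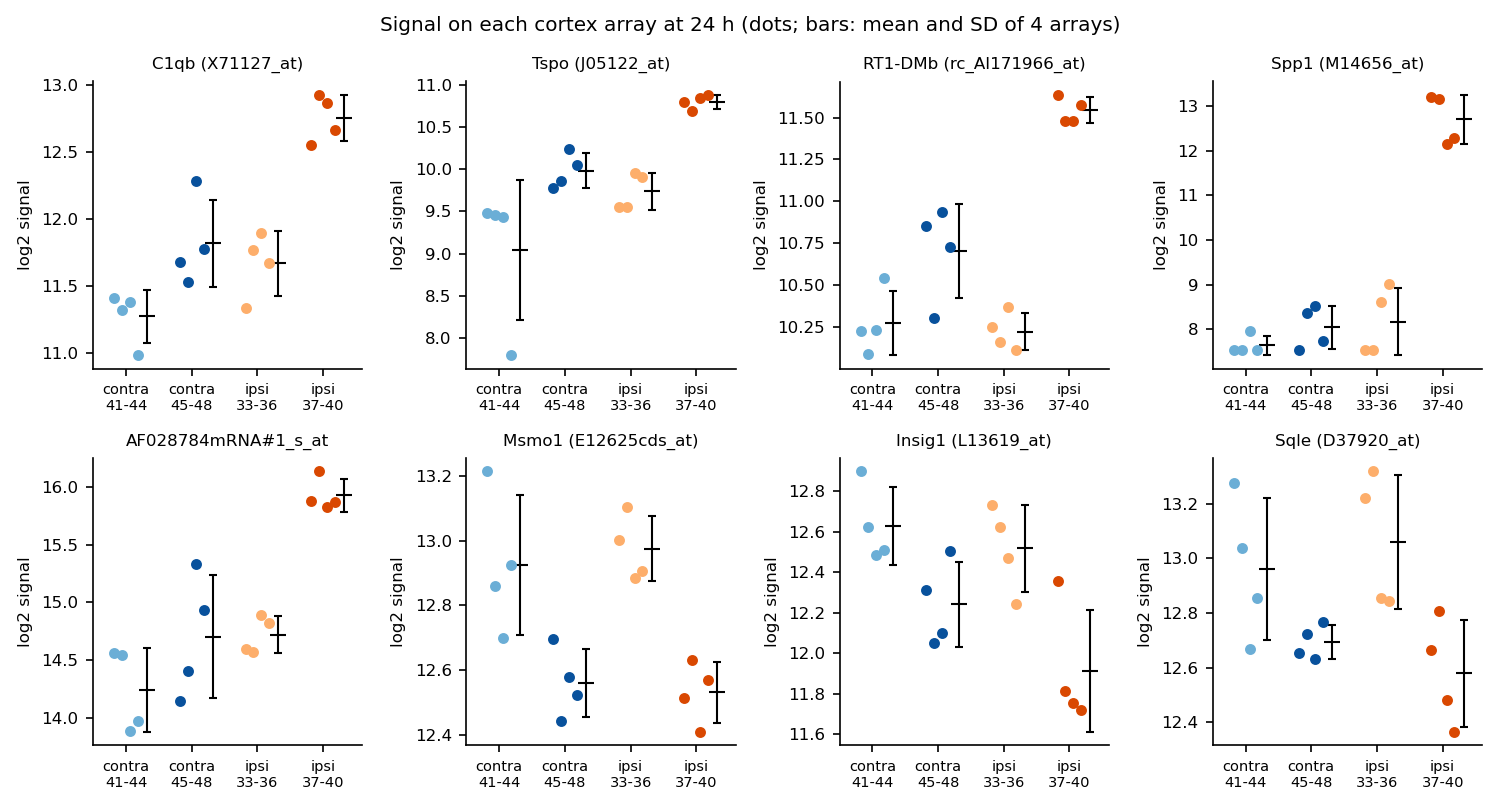
Log2 signal of 8 probe sets (vertical axes) on each cortex array at 24 h, in 4 blocks of extraction numbers (dots, 4 arrays a block), with the mean and SD of each block as a bar. C1qb and Tspo are higher on contralateral arrays 45 to 48 than on 41 to 44 without overlap, Msmo1 is lower without overlap, and none of the 8 contralateral differences passed the test.

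Over the whole list of microglial and macrophage markers, 17 genes of 18 on the array were tested. None (0 of 17) passed the test, 15 were higher and 2 lower on the later arrays, and the median difference was 0.25, against 0.03 over all tested genes. At an unadjusted p under 0.05, 3 were higher (C1qb, Tspo and C1qc), against 1.55% of all tested probe sets. Cyba, a subunit of the phagocyte NADPH oxidase, differed by 0.82 (SE 0.50), and Cd14, the lipopolysaccharide co-receptor, by 0.41 (SE 0.32). Cx3cr1, the microglial fractalkine receptor, differed by 0.32 (SE 0.30) and the lysosomal protease Ctss by 0.15 (SE 0.09). Ptprc, Aif1, Lyz2 and Ctsd lay between -0.03 and 0.02. Averaged over the 17 genes, relative to the 8 arrays, the list stood at -0.17 to -0.11 on the earlier arrays and at -0.04 to 0.33 on the later ones. Array 47 was the highest and array 45 the lowest of the later block. The median lay between 0.22 and 0.27 when each array was left out in turn. It was 0.36 with the floor at the 10th percentile of signal, 0.18 with quantile normalization and 0.16 with arrays weighted by quality. In bulk tissue, more cells of a type and more RNA per cell cannot be told apart.

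Leukocyte markers, for cells that enter from the blood, were near 0 in median. Of 10 tested, 3 were higher, 6 lower and 1 equal, with a median of -0.01, and 3 of the 10 were above the floor on all 8 arrays. Cd8a, a chain of the T-cell co-receptor, had the smallest p of the list with a difference of -0.63 (SE 0.31). Of 20 genes of the interferon response and antigen presentation, 15 were higher and 4 lower, with a median of 0.13. Of 32 cytokine and inflammatory signalling genes 25 were higher and 6 lower, with a median of 0.10. Without array 42 that median was 0.03, with 19 higher and 12 lower, and without array 47 it was 0.06, with the same counts. The interleukins Il10 and Il1a differed by 0.36 (SE 0.19) and 0.70 (SE 0.49), and Tgfb2 by 0.69 (SE 0.38). In each of these lists 0 genes passed the test.

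The reactive astrocyte list had 16 of 23 genes higher and 6 lower, with a median of 0.08. That median ranged from 0.04 without array 47 to 0.19 without array 43. Lgals1, encoding galectin-1, read 9.67, 9.62, 9.25 and 9.62 on the earlier arrays and 9.93, 10.16, 10.41 and 10.22 on the later, without overlap. Its difference was 0.64 (SE 0.32). Anxa2, a membrane-binding annexin, read 11.21 to 11.23 on the earlier arrays and 11.30 to 11.57 on the later, also without overlap, a difference of 0.20 (SE 0.14). Timp1, an inhibitor of matrix metalloproteinases, differed by 0.59 (SE 0.30), and Vim, the intermediate filament vimentin, by 0.32 (SE 0.19). Vim was at 12.84 on array 47 and at 11.44 to 12.02 on the other 7 arrays. Complement C3 was at the floor on all 8 arrays.

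Genes of cholesterol synthesis were mostly lower on the later arrays. Msmo1 encodes the sterol methyl oxidase that demethylates lanosterol-derived sterols. It read 13.22, 12.86, 12.70 and 12.93 on arrays 41 to 44 and 12.70, 12.44, 12.58 and 12.52 on arrays 45 to 48. The later arrays all lay below the earlier ones, although array 43 (12.699) and array 45 (12.695) nearly met. The difference was -0.37 (SE 0.10; limma adjusted p 0.82). Insig1 encodes the membrane protein that holds back the sterol-sensing activation of SREBP transcription factors, and is itself one of their targets. It read 12.90, 12.62, 12.48 and 12.51 on the earlier arrays and 12.31, 12.05, 12.10 and 12.50 on the later. Array 48 lay inside the earlier range, and the difference was -0.39 (SE 0.14; limma adjusted p 1).

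Sqle, squalene epoxidase, read 13.28, 13.04, 12.67 and 12.86 on the earlier arrays against 12.65, 12.72, 12.63 and 12.77 on the later. Arrays 41 and 42 set most of its difference of -0.27 (SE 0.12). Fdft1, squalene synthase, differed by -0.34 (SE 0.16), and Nsdhl, a sterol dehydrogenase, by -0.37 (SE 0.18). The Nsdhl arrays did not overlap, at 9.56 to 9.92 in the earlier and 9.21 to 9.42 in the later block. A second Msmo1 probe set differed by -0.23 (SE 0.11).

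Of the 16 cholesterol synthesis genes tested, 15 were lower and 1 higher on the later arrays, with a median of -0.23, and 0 passed the test. At an unadjusted p under 0.05, 5 were lower (Insig1, Sqle, Msmo1, Fdft1 and Nsdhl), against 1.39% of all tested probe sets. Acat2 differed by -0.25 (SE 0.14), Cyp51 by -0.22 (SE 0.14), Dhcr7 by -0.25 (SE 0.16) and Idi1, the isopentenyl isomerase, by -0.30 (SE 0.23). The enzymes Mvk and Fdps were at -0.04 and -0.03 in their brightest probe sets. Their dimmer ones were lower, at -0.54 (SE 0.23) for Mvk and at -0.28 (SE 0.12) and -0.61 (SE 0.48) for Fdps. A second Dhcr7 probe set was at -0.60 (SE 0.25), and the other four of Cyp51 ran from -0.42 (SE 0.20) to -0.01 (SE 0.15). Srebf1, which encodes the SREBP-1 transcription factor, was the 1 gene above 0, at 0.31 (SE 0.22). The list's mean was 0.0005 to 0.19 on the earlier and -0.13 to -0.005 on the later arrays, without overlap, and array 48 was the later array closest to the earlier block. Within the earlier block, arrays 41 and 42 (0.19 and 0.17) stood above arrays 43 and 44 (0.01 and 0.0005). Leaving out each array in turn kept the median between -0.26 and -0.17, with 14 or 15 of the 16 genes lower each time.

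The probe sets of Lss, lanosterol synthase, also disagreed. The brightest, which counts for the list, read 11.24 to 11.49 on the earlier and 10.93 to 11.33 on the later arrays, a difference of -0.13 (SE 0.15). Another read 10.27, 10.58, 10.06 and 8.88 on the earlier and 7.54, 7.99, 9.10 and 9.79 on the later arrays, with array 45 at the floor. Its difference was -1.35 (SE 0.38; limma adjusted p 0.82), the most negative of any tested probe set, and its later arrays spread over more than 2 log2 units.

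**Figure D2:**
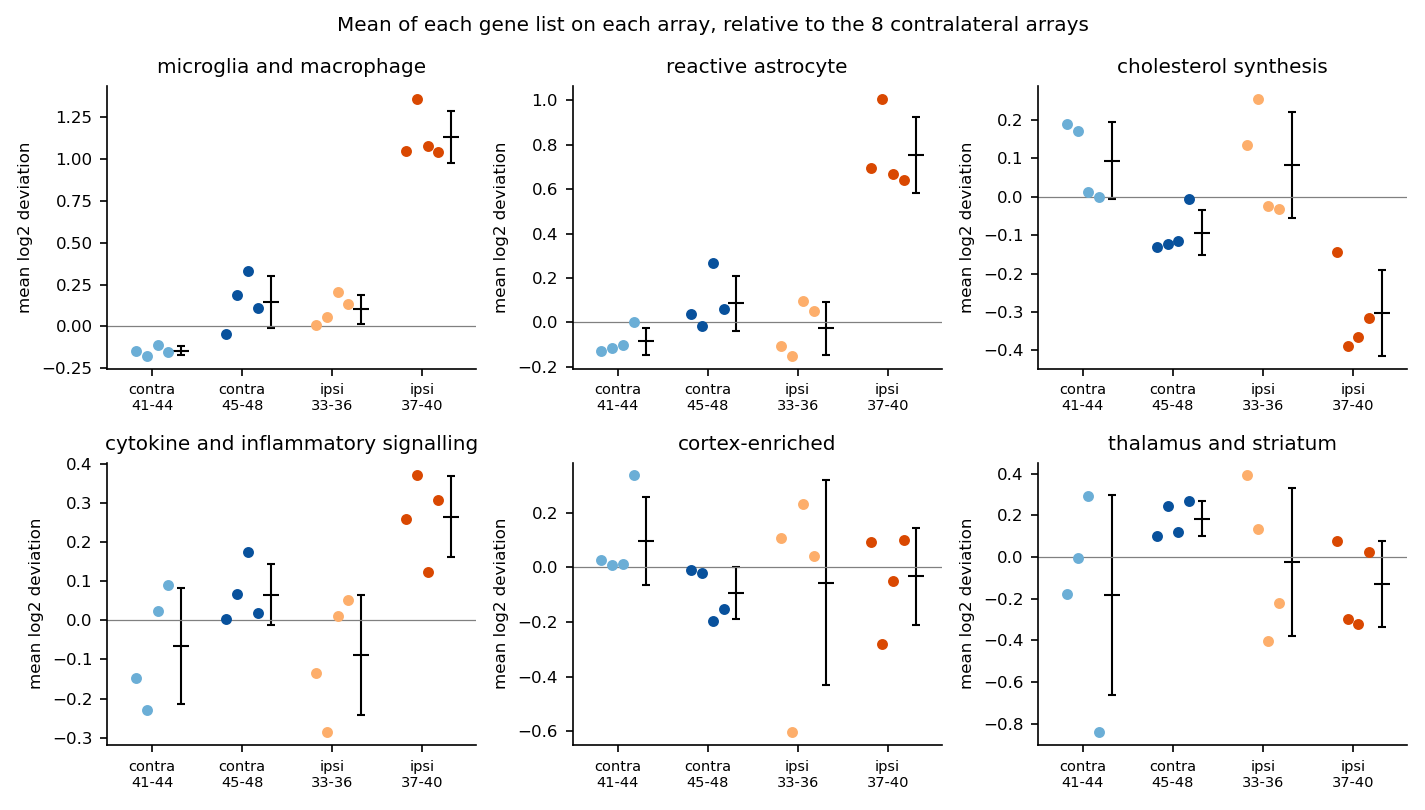
Mean log2 deviation of the genes of 6 lists on each cortex array at 24 h (vertical axes; 0 is the mean of the 8 contralateral arrays), with dots for arrays and bars for the mean and SD of 4. On the contralateral side the microglial means (-0.17 to -0.11 against -0.04 to 0.33) do not overlap between blocks. Nor do the cholesterol synthesis means (0.0005 to 0.19 against -0.13 to -0.005) or the cortex-enriched means (0.007 to 0.34 against -0.20 to -0.009). Array 44 stands apart in the cortex-enriched and the thalamus and striatum lists.

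The promoters of Msmo1, Insig1 and Nsdhl are shown because these 3 genes are among the 5 of the list at an unadjusted p under 0.05. Each window runs from 250 bases before to 50 after the annotated start, from RefSeq on the GRCr8 build, in the direction of transcription. Capitals mark the letters CCAAT or their reverse complement ATTGG, the core of the box bound by NF-Y, which is known to work beside SREBP at sterol-regulated promoters. Msmo1 lies at chr16:29746863-29747162 on the + strand, Insig1 at chr4:8057720-8058019 on the - strand and Nsdhl at chrX:155817110-155817409 on the + strand.
Msmo1: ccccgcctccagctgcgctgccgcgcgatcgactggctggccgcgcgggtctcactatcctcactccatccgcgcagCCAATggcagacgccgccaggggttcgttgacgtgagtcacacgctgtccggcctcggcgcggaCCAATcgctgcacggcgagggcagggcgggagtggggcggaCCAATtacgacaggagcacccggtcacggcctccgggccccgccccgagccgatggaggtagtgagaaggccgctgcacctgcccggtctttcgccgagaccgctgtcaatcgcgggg
Insig1: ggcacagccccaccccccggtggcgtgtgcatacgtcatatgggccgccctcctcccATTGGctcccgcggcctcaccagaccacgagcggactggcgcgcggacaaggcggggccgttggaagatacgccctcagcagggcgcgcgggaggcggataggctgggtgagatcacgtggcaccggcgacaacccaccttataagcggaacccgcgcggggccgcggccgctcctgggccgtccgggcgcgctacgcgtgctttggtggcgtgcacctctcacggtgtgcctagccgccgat
Nsdhl: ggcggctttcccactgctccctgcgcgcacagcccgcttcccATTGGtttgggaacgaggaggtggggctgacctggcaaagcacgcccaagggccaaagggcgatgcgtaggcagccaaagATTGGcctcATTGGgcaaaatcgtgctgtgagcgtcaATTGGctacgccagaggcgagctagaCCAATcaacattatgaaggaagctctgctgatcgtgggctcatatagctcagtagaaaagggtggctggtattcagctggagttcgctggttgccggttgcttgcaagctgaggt
These windows hold the motif 3 times, 1 time and 5 times. Of the 16 list genes 14 had a promoter in the reference, and 11 of the 14 held CCAAT on either strand, against 37.5% of all 33469 promoters of that length. The sterol element letters TCACNCCAC, searched on both strands, were in 0 of the 14 and in 1.12% of all promoters. The motifs do not overlap in these letters. A match is a description of letters and does not show a bound site, and a missing match says only that those letters are not in the window.

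Neuronal genes were mostly near 0, with a few lower values that rested largely on arrays 46 and 47. Of 39 genes of synaptic vesicles and neuronal structure, 25 were lower and 14 higher, with a median of -0.06. Syt5, a synaptotagmin, read 13.02, 12.87, 12.87 and 13.14 on the earlier and 12.61, 12.47, 12.26 and 12.91 on the later arrays, a difference of -0.41 (SE 0.13). Mapt, which encodes tau, differed by -0.35 (SE 0.13), with array 47 at 13.68 and the other 7 at 14.35 to 14.65. Other Mapt probe sets were at -0.16 (SE 0.13) and 0.03 (SE 0.10). Nefm, the medium neurofilament chain, read 14.08 to 14.16 on the earlier and 13.44 to 14.02 on the later arrays without overlap, a difference of -0.30 (SE 0.12). Eef1a2, the neuronal elongation factor, read 15.14 to 15.21 on the earlier and 15.03, 14.91, 14.51 and 15.12 on the later arrays. It also did not overlap, at -0.28 (SE 0.08).

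Lists of glutamate receptors, GABA system genes and ion channels had medians of -0.04, 0.00 and -0.03. The glutamate receptor Grik3 was at -0.61 (SE 0.27), and Gphn, the inhibitory synapse scaffold gephyrin, at -0.37 (SE 0.16). The 35 immediate early and activity-regulated genes had 14 higher and 21 lower, with a median of -0.01. The 36 cytosolic ribosomal protein genes split 18 and 18, with a median of 0.00. Oligodendrocyte and myelin genes split 7 higher and 6 lower, with a median of 0.05.

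Stress, matrix and growth factor genes lay on both sides of 0. Hmox1, the heme oxygenase induced by free heme and oxidative stress, read 9.98 to 10.38 on the earlier and 10.31, 10.43, 10.98 and 11.02 on the later arrays, a difference of 0.51 (SE 0.22). Fn1, fibronectin, differed by 0.31 (SE 0.15) in its brightest probe set and by -0.02 to 0.69 in the others, and the insulin-like growth factor binding protein Igfbp6 by 0.47 (SE 0.22). Diablo, a mitochondrial promoter of apoptosis, differed by 0.34 (SE 0.16). The chaperone Calr and the protease Plat were below 0 under every alternative tried, at -0.22 to -0.08 and at -0.37 to -0.12. Most other probe sets put through these alternatives also kept their sign. Of 22 heat shock and chaperone genes 14 were higher and 8 lower, with a median of 0.04. The lists of antioxidant, extracellular matrix, growth factor and apoptosis genes had medians of 0.05, 0.05, 0.01 and 0.11, with 0 genes past the threshold. Genes higher and lower in these lists numbered 14 and 9, 18 and 14, 17 and 14, and 8 and 4. Hk1, the main hexokinase of brain, read 14.19 to 14.28 on the earlier and 13.88 to 14.11 on the later arrays without overlap, a difference of -0.21 (SE 0.08), while a dimmer Hk1 probe set was at 0.24 (SE 0.15). Vwf, made by endothelial cells, differed by 0.90 (SE 0.46), and the 17 endothelial and pericyte genes had a median of 0.11, with 11 higher and 6 lower.

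Of the 20 probe sets naming 1 gene with the smallest p, 10 were higher and 10 lower on the later arrays, and 0 of them passed. The smallest p of all, 0.000267, belonged to Eif2b3, a subunit of the exchange factor for translation initiation factor eIF2. It read 11.09, 10.90, 11.04 and 10.93 on the earlier and 11.47, 11.27, 11.77 and 11.53 on the later arrays, without overlap. The difference was 0.52 (SE 0.13; limma adjusted p 0.82), against 0.10 between the ipsilateral blocks. Other Eif2b3 probe sets were at 0.26 (SE 0.17) and -0.15 (SE 0.16). Svs3a, known from seminal vesicle, differed by 1.33 (SE 0.37), from 7.93 to 8.43 on the earlier to 8.97 to 9.87 on the later arrays. The transporter Slc22a7 was at the floor on 3 of 4 earlier arrays and at 8.59 to 9.30 on the later, a difference of 1.26 (SE 0.39) that the floor makes smaller. A brighter Slc22a7 probe set was at 0.20 (SE 0.31). Chrm1, a muscarinic acetylcholine receptor, differed by 1.15 (SE 0.38) with overlap, since array 47 (9.63) lay below array 42 (9.65), and its brighter probe set was at 0.08 (SE 0.16).

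Lower among those 20 were also the RNA helicase Ddx39b at -0.46 (SE 0.13), the translocon subunit Ssr4 at -0.48 (SE 0.13), and Fam162a at -0.45 (SE 0.14). Eloc, an elongin subunit of ubiquitin ligases, was at -0.43 (SE 0.14), the fatty acid ligase Acsl4 at -0.40 (SE 0.13) and the nuclear pore protein Nup62 at -0.38 (SE 0.11). Ddx39b read 11.75 to 11.97 on the earlier arrays, and 11.50, 11.14, 11.04 and 11.85 on the later. Array 48 sat with the earlier block there, as it did for Ssr4 (12.20, against 11.21 to 11.71 on arrays 45 to 47). Other probe sets of 3 of these genes differed among themselves in sign, from -0.18 (SE 0.20) to 0.59 (SE 0.46) for Ddx39b, at -0.25 (SE 0.14) and 0.23 (SE 0.17) for Ssr4, and at -0.17 (SE 0.17) and 0.46 (SE 0.34) for Acsl4. Without array 48, Ssr4, Ddx39b, Fam162a and 1 probe set without a gene name passed the limma test as lower, with adjusted p from 0.015 to 0.0482. Leaving out any other single array gave 0 calls. Among the 104 probe sets lower at an unadjusted p under 0.05, array 46 was the lowest of the 8 in 42 and array 47 in 39. Among the 116 higher, array 46 was the highest in 45, array 45 in 32 and array 47 in 27.

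Markers of neighbouring regions leaned with the blocks as well. The 6 cortex-enriched genes were all lower on the later arrays, with a median of -0.25. Their means did not overlap, at 0.007 to 0.34 on the earlier and -0.20 to -0.009 on the later arrays. Rgs4 and Cck, clearly higher in cortex than in hippocampus, were near 0, at -0.0048 and -0.0099. Nr4a2, at -0.31, was the 1 of the 6 with a lower mean in cortex than in hippocampus. Leaving out each array in turn left 4 or 5 of the 6 lower. The 8 thalamus and striatum genes were all higher, with a median of 0.25, and 0 of these 14 passed the test. Penk, the proenkephalin of striatal neurons, read 11.99, 11.85, 12.12 and 10.18 on the earlier arrays and 11.98 to 12.21 on the later. Rgs9 read 8.97, 9.03, 10.05 and 7.54 on the earlier and 9.55 to 10.10 on the later arrays. In both, array 44 stood lowest. Without array 44 the thalamus and striatum median was 0.15, with 7 of 8 genes higher, and the cortex-enriched median was -0.08. The part of dissection in the differences above was not tested.

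The probe sets that separated the number blocks on the ipsilateral side were then read on the contralateral one. Of the 52 probe sets (0.693% of those tested) that were higher past the threshold on ipsilateral arrays 37 to 40, 43 were higher, 8 lower and 1 equal on the later contralateral arrays. Their median was 0.23 contralaterally and 1.29 ipsilaterally, and their contralateral range was -0.41 to 0.72. They were chosen for their ipsilateral values, so the larger ipsilateral median is partly fixed by the choice. At an unadjusted p under 0.05, 8 were higher and 1 lower contralaterally (1.55% and 1.39% of all tested), and 5 lay without overlap above the earlier arrays (1.2% of all tested). Of the 14 (0.187%) that were lower ipsilaterally, 13 were lower and 1 higher contralaterally, with medians of -0.25 and -0.59. At an unadjusted p under 0.05, 7 of these 14 were lower contralaterally, against 1.39% of all tested probe sets. These counts are of probe sets, and C1qb and Msmo1 each enter with more than 1. Insig1, Sqle, Fdft1 and Msmo1, among the lower ones, are also counted in the cholesterol list above. The labels do not say whether the 2 sides shared animals or processing, so the sides may not be independent. The part of such sharing was not tested.

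C1qb differed by 1.08 ipsilaterally (limma adjusted p 4.71e-06) and by 0.54 contralaterally, and RT1-DMb by 1.32 and 0.43. For C1qb the difference between sides was -0.54 (SE 0.21; limma adjusted p 1), and for RT1-DMb -0.89 (SE 0.21; limma adjusted p 0.0833). Tspo was at 1.06 (SE 0.30) ipsilaterally, with a limma adjusted p of 0.0924, and at 0.94 contralaterally. For the cholesterol genes the ipsilateral value is given first. Msmo1 was at -0.44 and -0.37, Insig1 at -0.61 and -0.39, Sqle at -0.48 and -0.27, Fdft1 at -0.61 and -0.34, and Idi1 at -1.05 and -0.30. For none of these 5 did the difference between sides pass, with a limma adjusted p of 1 each. For Msmo1 it was 0.08 (SE 0.14), and for Idi1 0.76 (SE 0.32). Over the whole cholesterol list, 6 of 16 genes passed as lower ipsilaterally, against 0.187% of all tested probe sets, and the median was -0.40 there.

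**Figure D3:**
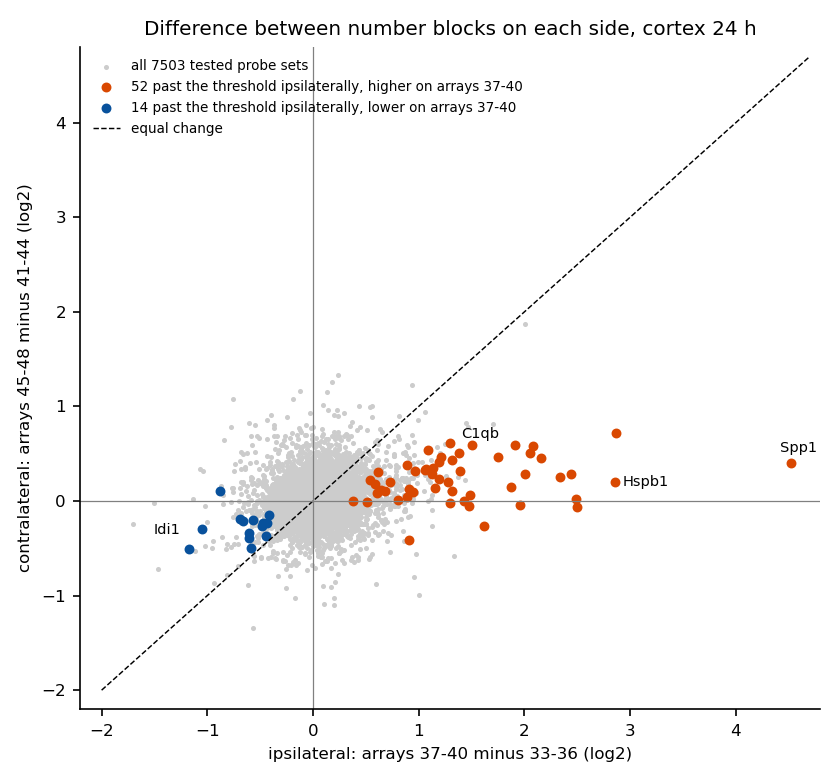
Log2 difference between number blocks in ipsilateral (horizontal axis) and contralateral cortex (vertical axis) at 24 h, for 7503 probe sets (grey dots), with the 52 higher and 14 lower past the threshold ipsilaterally in colour. The coloured dots spread to 4.52 along the horizontal axis and lie between -0.51 and 0.72 on the vertical one. All 66 have the larger difference ipsilaterally, off the dashed line of equal change, which is partly fixed by choosing them on ipsilateral values.

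Where the 2 sides were tested against each other, 6 probe sets (0.08% of 7503) passed, all with a smaller or opposite difference contralaterally. Spp1, encoding osteopontin, a secreted protein of activated macrophages and microglia, read 7.54, 7.54, 7.97 and 7.54 on arrays 41 to 44 and 7.54, 8.37, 8.53 and 7.75 on arrays 45 to 48. That is 0.40 (SE 0.34) beside 4.52 ipsilaterally, a difference between sides of -4.12 (SE 0.48; limma adjusted p 9.18e-07). With 3 of the 4 earlier arrays and array 45 at the floor, the contralateral value is no bound. Hspb1, the small heat shock protein Hsp27, was at 0.20 contralaterally and 2.85 ipsilaterally (difference -2.65; limma adjusted p 0.0195). That difference passed in 1 Hspb1 probe set only. It was -1.73 (limma adjusted p 0.901) and -1.29 (limma adjusted p 0.452) in a pair of others, and the brightest was at 0.07 on both sides. The monocyte chemokine Ccl2 was at 0.02 and 2.49 (-2.47; limma adjusted p 0.0273), with 3 of 4 arrays at the floor in each contralateral block. Its contralateral value was 0.74 with the floor at the 10th percentile and 0.40 with log2(signal + 100). A brighter Ccl2 probe set was at 0.28 and 2.01, and its difference between sides of -1.73 did not pass (limma adjusted p 0.727). Lcn2, the siderophore-binding lipocalin of reactive astrocytes, was at -0.05 and 1.96 (-2.01; limma adjusted p 0.0111).

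Complement C3, at the floor on all 8 contralateral arrays, was at 1.43 ipsilaterally (-1.43; limma adjusted p 0.0111). The floor fixes its contralateral value, so this difference between sides is the ipsilateral change alone and gives no bound on the contralateral one. The probe set rc_AI008836_s_at, which names several genes, was at -0.41 (SE 0.19) contralaterally and 0.91 ipsilaterally (-1.32; limma adjusted p 0.0265). The test between sides took all arrays as independent. Whether the same animals gave both sides is not given in the labels.

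**Figure D4:**
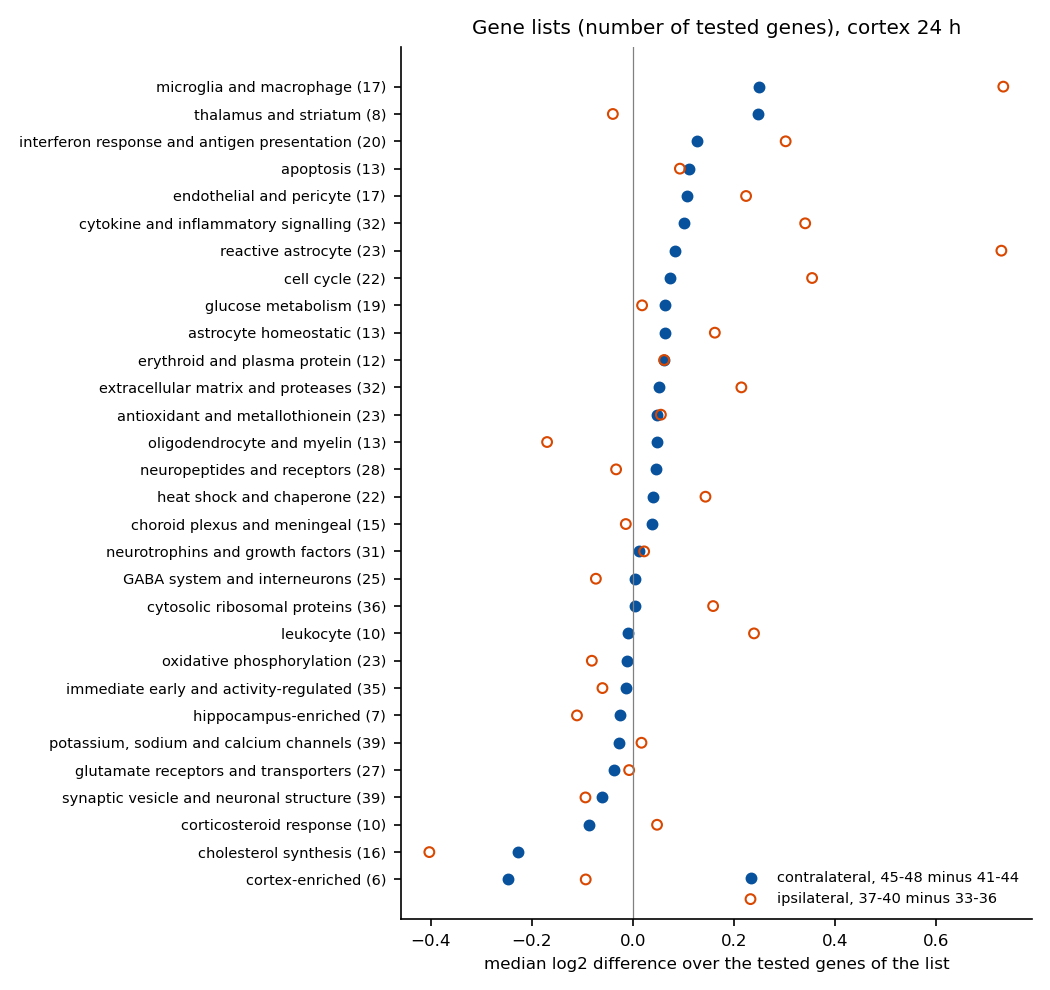
Median log2 difference between number blocks (horizontal axis) over the tested genes of each of 30 gene lists (rows, with the number of genes), in contralateral (filled dots) and ipsilateral cortex (open dots) at 24 h. The contralateral medians run from -0.25 for cortex-enriched genes to 0.25 for microglial genes, and the microglial and reactive astrocyte medians reach 0.73 ipsilaterally.

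The probe sets that passed between number blocks of the same contralateral cortex at 4 h were mostly near 0 at 24 h. At 4 h, 9 probe sets passed, 3 higher and 6 lower on the later arrays. They were chosen for their values at 4 h, so the smaller differences at 24 h are partly fixed by the choice. Egr1, an immediate early transcription factor, fell at 4 h by 0.75 and 0.60 in its 2 probe sets, and stood at -0.0043 and 0.10 at 24 h. Nr4a3, an orphan nuclear receptor induced by activity, fell by 1.04 at 4 h and was at -0.02 at 24 h. Mfge8, which encodes a bridge protein for engulfment of dying cells, rose by 0.95 at 4 h and was at 0.07 at 24 h. Ccnd2, Cspg5 and Cpq fell by 0.44, 0.63 and 0.60 at 4 h and were at 0.08, -0.05 and -0.01 at 24 h. Other probe sets of these genes were farther from 0 at 24 h, at 0.40 (SE 0.14) for Ccnd2, without overlap, at -0.35 (SE 0.14) for Cspg5 and at -0.38 (SE 0.36) for Nr4a3. The other two that rose at 4 h have no gene name here (rc_AI102562_at, by 1.38, and M11794cds#2_f_at, by 1.26) and were at 0.27 and 0.13 at 24 h. The difference between the 2 times was itself past the threshold for 0 of 7503 probe sets by limma, with 306 at an unadjusted p under 0.05 and a smallest adjusted p of 0.519. The microglial list had a median of -0.01 at 4 h and the cholesterol list one of 0.07, beside 0.25 and -0.23 at 24 h.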

How the data were processed

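Signals of 47 arrays were used, of which 8 are described here. The authors deposited 1 linear intensity per probe set (signal); no source used here states their summary method or scaling target, and each array's 2% trimmed mean lay between 2503 and 2503.2 on the 8 arrays, so no further scaling was applied. Dim signals were set to a floor at the 25th percentile over all values (185.8) before taking log2, which makes folds of dim genes smaller. Probe sets above this floor on at least 7 arrays were tested, 7503 in all, without 59 control probe sets.

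All 47 arrays entered 1 linear model of 13 group means in limma 3.58.1 (R 4.3.3, package data.table, version 1.17.8), with eBayes, an intensity trend, two-sided tests and Benjamini-Hochberg adjustment over 7503 probe sets within each of 5 comparisons. The fitting procedure was also checked on simulated data, built from the fitted means and spread of these arrays. With 4 arrays against 4, an exact permutation test could not go below p = 0.0286.

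Gene names are those of the platform annotation, brought up to date through gene IDs. A single gene is named by 7018 probe sets, several by 308 and none by 1473, and 6104 of the 6122 that were tested and name a single gene were found in RefSeq. A gene in a list was counted by its probe set of highest mean. Genes to name were drawn from the 20 one-gene probe sets with the smallest p. Also used were the 2 smallest-p members of each of 30 lists and the 5 largest calls in each direction of the other comparisons. Not all of these are named in the text. Other members of a list were named after their values were seen. The arrays compared, the members and the lists were chosen with earlier results of these data known. The alternatives tried were the floor (the 10th percentile), a pseudocount of 100 in its place, the filter (none, or above the floor on at least 4 of the 8 arrays), quantile normalization, the arrays in the model, array weights, each array's low-end signal as a covariate, and leaving out each array in turn.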

Additional observations from a re-analysis of the deposited data

Results flagged for a closer look

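In the difference between sides, the contralateral minus the ipsilateral change was -4.12 for Spp1, -2.65 for Hspb1, -2.47 for Ccl2, -2.01 for Lcn2, -1.43 for C3 and -1.32 for the probe set rc_AI008836_s_at, each past the threshold of the limma test of that difference. For C3 the floor fixes the contralateral value, so the difference is the ipsilateral change alone.

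In blocks of 4 arrays, 1 array lay far from the other 3 in 18 of 214 groups of values tested (8.4%), where chance gives about 1 in 20. The measure is the gap to the nearest other array over the range of the block. It was 1 for Slc22a7 (array 44, 8.49, the other 3 at the floor), 0.976 for Tspo (array 44, 7.79 against 9.44 to 9.48) and 0.865 for Penk (array 44, 10.18 against 11.85 to 12.12). It was 0.833 for Atp5f1d, a subunit of ATP synthase (array 44, 13.94 against 14.11 to 14.14), 0.84 for LOC102549032 (array 41, 8.38 against 9.06 to 9.20) and 0.957 for Jun (array 41, 12.46 against 11.97 to 11.99). It was 1 for Il10 (array 42, 7.59, the other 3 at the floor) and 0.876 for Lgals1 (array 43, 9.25 against 9.62 to 9.67).

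In the later block it was 0.887 for Gphn (array 47, 10.76 against 11.57 to 11.68), 0.873 for Igfbp6 (array 47, 10.13 against 10.68 to 10.76), 0.948 for Mapt (array 47, 13.68 against 14.35 to 14.39) and 0.836 for Htr2c (array 48, 8.77 against 9.20 to 9.29).

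Among list means, the cholesterol synthesis mean of array 48 (0.886) lay above the other 3 later arrays, the cortex-enriched mean (0.943) and the leukocyte mean (0.834) of array 44 above the other earlier ones, and the hippocampus-enriched mean of array 46 (0.843) above the other later ones. Array 45 had 76.7% of probe sets above the floor, against 74.8% to 74.9% on arrays 46 to 48 (0.947). Within the earlier block array 44 had the lowest median correlation with the other arrays, 0.973 against 0.978 to 0.979 (0.842). Arrays 45 and 46 of the later block were close to it, at 0.9741 and 0.9723.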

How the results depend on the processing

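Under 8 other settings the contralateral comparison at 24 h gave 0 calls each time, with 213 to 448 probe sets at an unadjusted p under 0.05 and adjusted p down to 0.111 (array weights). Leaving out 1 array gave 0 to 4 calls, the 4 only without array 48. No paired analysis was possible because each extraction number occurs once in the series. The ipsilateral count of 66 became 32 with only the compared arrays in the model and 185 with array weights, and 48 to 66 without 1 array. The contralateral count of 9 at 4 h became 0 and 4 in those settings, and 2 to 16 without 1 array. The count of 6 between sides became 2 and 22, 3 after quantile normalization, and 1 to 12 without 1 array. The change between times gave 0 in all 8 settings and 0 to 1 without 1 array. The causes were not tested.

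Of the 96 probe sets followed, 10 turned sign under at least 1 alternative, none of them past the threshold. With array weights H19 was at 0.0468, Cpq at 0.016 and Egr1 at 0.014, and with the covariate Nr4a3 was at 0.0183 and Egr1 at 0.0026. Without 1 array the lowest and highest values were -0.2855 and 0.1252 (H19), -0.0738 and 0.0672 (Cpq), -0.0983 and 0.0416 (Nr4a3), -0.0828 and 0.0555 (Egr1), -0.1847 and 0.0791 (Lcn2), -0.117 and 0.135 (Ccl2), -0.007 and 0.4267 (Cd8b), -0.1666 and 0.3816 (Hspb1), -0.0354 and 0.1584 (Mfge8) and -0.1253 and 0.0665 (Cspg5). The median over all probe sets lay between 0 and 0.0214 in the 8 settings. Of list medians, 3 moved by over the spread between arrays: cortex-enriched to -0.08 without array 44, glucose metabolism to -0.02 without array 41 and glutamate receptors to -0.09 without array 45. With 4 arrays a block, differences under 1.35-fold lie within the median probe set's unadjusted 95% interval, and larger ones also did not pass. In addition, 1237 dim probe sets were not tested.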

Other observations

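The largest log2 difference of the comparison belonged to M93257_s_at, a probe set without a gene name here, which was singled out after its values were seen. It read 7.67, 7.54, 9.22 and 10.54 on contralateral arrays 41 to 44 and 10.56, 10.67, 10.87 and 10.36 on arrays 45 to 48, so that arrays 41 and 42 lay far below the other 6. The difference was 1.87 with an SE of 0.94 (limma adjusted p 1). The ipsilateral arrays 33 to 36 read 7.54, 7.54, 9.67 and 10.26, in the same order as arrays 41 to 44, and arrays 37 to 40 read 10.60 to 11.01. The labels give no link between ipsilateral and contralateral arrays.

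The means of the 13 oligodendrocyte and myelin genes varied within the earlier block more than between blocks. They were 0.30, 0.28, -0.35 and -0.25 on arrays 41 to 44 and -0.14, -0.06, 0.02 and 0.19 on arrays 45 to 48. Ipsilateral arrays 33 to 36 stood at 0.31, 0.40, -0.17 and -0.03, and arrays 37 to 40 between -0.15 and 0.09.

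Other probe sets without a gene name, also chosen after their values were seen, were among the smallest p. X52625_at read 14.90, 14.75, 14.51 and 14.24 on the earlier and 14.11, 14.07, 13.93 and 14.31 on the later arrays, with array 44 inside the later range. Its difference was -0.50 (SE 0.13) contralaterally and -0.58 ipsilaterally, where it passed the test. AF028784mRNA#1_s_at read 14.56, 14.54, 13.88 and 13.97 on the earlier and 14.14, 14.40, 15.33 and 14.93 on the later arrays. It differed by 0.46 (SE 0.16) contralaterally and by 1.21 ipsilaterally, and a probe set of the same transcript entry, AF028784cds#1_s_at, by 0.60 (SE 0.24) and 1.91. In both, arrays 47 and 48 were the highest of the 8.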
